A study of Mus musculus with 21 samples.

Results

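Transcripts of 10 chaperone genes of the endoplasmic reticulum (ER) were followed in IgA+ plasma cells (IgA+ PCs) of the mouse small intestine: *Hspa5*, *Hyou1*, *Hsp90b1*, *Dnajb9*, *Dnajb11*, *Dnajc3*, *Calr*, *Canx*, *Sdf2l1* and *Manf*. The genes were chosen by name from the deposited table of 53801 genes. All 10 were found, and all 10 were among the 20256 genes tested, which had 10 or more counts summed over the libraries. Bulk RNA-seq libraries were available for 6 control samples at ZT0, 6 at ZT12, 4 knockout samples at ZT0 and 5 at ZT12, where ZT (Zeitgeber time) counts the hours from lights on. The cells were sorted as CD138+ IgA+ cells from the lamina propria of C57BL/6 mice. Control mice were Mb1Cre-/- x Arntlfl/fl littermates and so carried the floxed *Arntl* allele on both chromosomes. Knockout mice were Mb1Cre+/- x Arntlfl/fl, in which the Cre recombinase sits in the *Cd79a* (Mb1) locus, acts in the whole B cell lineage and removes the loxP-flanked piece of *Arntl*, which encodes the clock protein Bmal1. For 8 of the 9 samples titled as knockout, the labelled genotype is that of the controls, and the groups were therefore taken from the sample titles. Neither the age of the mice nor the sex of each sample is given in the labels.

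Plasma cells secrete antibody at a high rate, and the ER is where antibody chains are folded, joined by disulfide bonds and checked before export. BiP, the product of *Hspa5*, binds unfolded chains and releases them in a cycle of ATP hydrolysis that J domain cochaperones start and exchange factors complete, while calnexin and calreticulin hold chains through their sugar residues. When unfolded protein accumulates, the sensors of the unfolded protein response switch on transcription of most of these genes, in part through the ER stress response element (ERSE) in their promoters. In plasma cells this program is part of normal differentiation, with *Xbp1* as a central factor.

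Promoter sequences are shown first, for genes that followed the level of *Hspa5* between libraries and for *Canx*, which did not. RefSeq promoters on GRCm38.p6, from 250 bases before to 50 bases after the start of transcription, were matched for 8 of the 10 genes. *Hyou1* and *Manf* had no entry. The ERSE was searched on both strands as CCAAT followed by any 9 bases and CCACG, the related element ERSE-II as ATTGG followed by any 1 base and CCACG, the core of the unfolded protein response element as TGACGTGG, and the E-box, the element bound by Bmal1 and its partners, as CACGTG. An ERSE stood in 5 of the 8 promoters, against 0.137% of the 27025 mouse genes with a promoter in the table (37 genes). In the following promoters, which are those of the most abundant gene, of a gene that followed it closely and of a gene that did not, the capitals mark the defined letters of the ERSE.
Hspa5, chr2:34771840-34772139, plus strand: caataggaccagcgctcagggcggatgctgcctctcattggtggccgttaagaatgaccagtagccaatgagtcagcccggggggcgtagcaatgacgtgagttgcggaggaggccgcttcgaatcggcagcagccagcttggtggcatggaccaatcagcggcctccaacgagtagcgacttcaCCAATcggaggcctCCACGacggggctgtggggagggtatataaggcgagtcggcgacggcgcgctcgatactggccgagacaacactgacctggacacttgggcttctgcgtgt
Hsp90b1, chr10:86705395-86705694, minus strand: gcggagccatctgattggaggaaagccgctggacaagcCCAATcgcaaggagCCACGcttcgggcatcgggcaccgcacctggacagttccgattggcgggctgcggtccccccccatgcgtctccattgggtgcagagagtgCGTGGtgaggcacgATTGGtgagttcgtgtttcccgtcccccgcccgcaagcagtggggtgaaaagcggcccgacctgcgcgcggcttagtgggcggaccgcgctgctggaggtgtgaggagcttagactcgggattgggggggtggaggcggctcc
Canx, chr11:50325624-50325923, minus strand: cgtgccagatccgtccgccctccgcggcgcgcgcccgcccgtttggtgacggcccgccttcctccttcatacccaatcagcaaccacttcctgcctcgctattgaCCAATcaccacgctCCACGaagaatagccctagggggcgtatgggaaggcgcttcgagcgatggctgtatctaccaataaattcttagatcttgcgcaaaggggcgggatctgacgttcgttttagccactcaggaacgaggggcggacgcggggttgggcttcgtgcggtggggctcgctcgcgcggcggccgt

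*Hsp90b1* held 2 such elements, of which the second ran in the opposite orientation. The elements of the other genes are given alone, with their defined letters in capitals, because they show where the same letters recur in genes with different behaviour.
Dnajc3, ERSE, chr14:118937827-118937845, plus strand: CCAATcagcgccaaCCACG
Calr, ERSE in the opposite orientation, chr8:84847075-84847093, minus strand: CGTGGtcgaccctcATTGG
Dnajb11, ERSE-II, chr16:22857852-22857862, plus strand: ATTGGcCCACG
ERSE-II was found in 0.0444% of the genes. The TGACGTGG core, present in 0.714% of the genes, was in 0 of the 8 promoters. The E-box was in the promoters of *Calr* and *Dnajb9*, and in 8.09% of the genes. These matches describe the letters in the window and not binding. The ERSE was searched because it is known from promoters of such genes, so its share among them is a description and not a test.

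Between 14471018 and 22785835 reads per library were counted on genes, and immunoglobulin genes took 51.5% to 63.6% of them. Levels are given as CPM, counts scaled to a common library total, after TMM normalization. All 8 plasma cell markers were present, with *Jchain* at 37479 CPM or more in every library, whereas the summed level of 6 markers of other B cells ranged from 11.6 to 27.7 CPM and that of 6 T cell markers from 10.8 to 28.2 CPM. The summed level of 8 epithelial markers, of which 7 passed the filter, was 51.3 to 165 CPM in 19 libraries but 543 CPM in control ZT12 replicate 5 and 321 CPM in knockout ZT12 replicate 5. *Arntl* was at 6.83 to 8.36 CPM in control samples at ZT0 and 4.08 to 6.47 CPM in knockout samples at ZT0, and at 4.00 to 5.56 CPM and 3.10 to 4.93 CPM at ZT12. Reads outside the floxed exons are included in these values. *Cd79a*, whose locus carries the Cre, reached 276 CPM at most in knockout libraries and was never under 386 CPM in control libraries. Knockout ZT0 replicate 3 carried both *Xist* (428 CPM) and the Y-linked *Ddx3y* (20.7 CPM), and it had the highest *Arntl* level of the knockout samples, so the count of chaperones called is also given without it. Knockout ZT12 replicate 5 had *Xist* at 344 CPM and a lower level of *Ddx3y*, at 2.23 CPM. The study describes the values of these groups as those of individual animals.

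The 10 genes took 0.728% to 1.47% of all counts of a library and 1.79% to 3.17% of the counts outside immunoglobulin genes. *Hspa5* alone held 37.4% of the reads of the group, and *Hsp90b1*, which encodes the ER member of the HSP90 family, held 30.6%. By mean CPM *Hspa5* ranked 7 among all genes tested and *Hsp90b1* 11. The least abundant, *Canx*, ranked 464 and still had 1944 to 4278 counts per library, so that counting error was small beside the spread between libraries.

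On GRCm38 the table places *Hspa5* (ENSMUSG00000026864) at chr2:34771970-34777547 on the plus strand, *Hyou1* (ENSMUSG00000032115) at chr9:44379490-44392369 on the plus strand and *Hsp90b1* (ENSMUSG00000020048) at chr10:86690209-86705509 on the minus strand. The J domain genes are *Dnajb9* (ENSMUSG00000014905) at chr12:44205559-44210326 on the minus strand, *Dnajb11* (ENSMUSG00000004460) at chr16:22857845-22879634 on the plus strand and *Dnajc3* (ENSMUSG00000022136) at chr14:118937976-118981697 on the plus strand. The lectin chaperone genes are *Calr* (ENSMUSG00000003814) at chr8:84841850-84846934 on the minus strand and *Canx* (ENSMUSG00000020368) at chr11:50293961-50325673 on the minus strand, and the remaining genes are *Sdf2l1* (ENSMUSG00000022769) at chr16:17130140-17132383 on the minus strand and *Manf* (ENSMUSG00000032575) at chr9:106838312-106891979 on the minus strand.

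Divided by the gene length in the table, the order of the levels over the 21 libraries was *Hspa5* (954 ± 212 CPM per kb, SD, n = 21), *Hsp90b1* (817 ± 136), *Calr* (328 ± 56.5), *Sdf2l1* (255 ± 43.2), *Manf* (122 ± 24.3), *Hyou1* (97.1 ± 19.6), *Dnajb9* (95.6 ± 13.6), *Dnajb11* (95.4 ± 10.7), *Dnajc3* (69.4 ± 7.98) and *Canx* (39.3 ± 3.31). The steps from *Hspa5* to *Hsp90b1* and from *Hyou1* through *Dnajb9* to *Dnajb11* were smaller than the SD over libraries. The genes were measured in the same libraries, so this SD of single genes does not give the spread of a step, which was not tested. The gap between the lectin chaperones was wide, with soluble calreticulin far above its membrane-bound relative calnexin on this per-length scale. *Hsp90b1*, *Manf* and *Dnajb9* overlap other annotated genes, among them *1810014B01Rik* for *Hsp90b1* and *Dcaf1* and *Rbm15b* for *Manf*, and how shared reads were counted is not given in the sources used here. The level of *Manf* per kb is therefore uncertain.

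**Figure D1:**
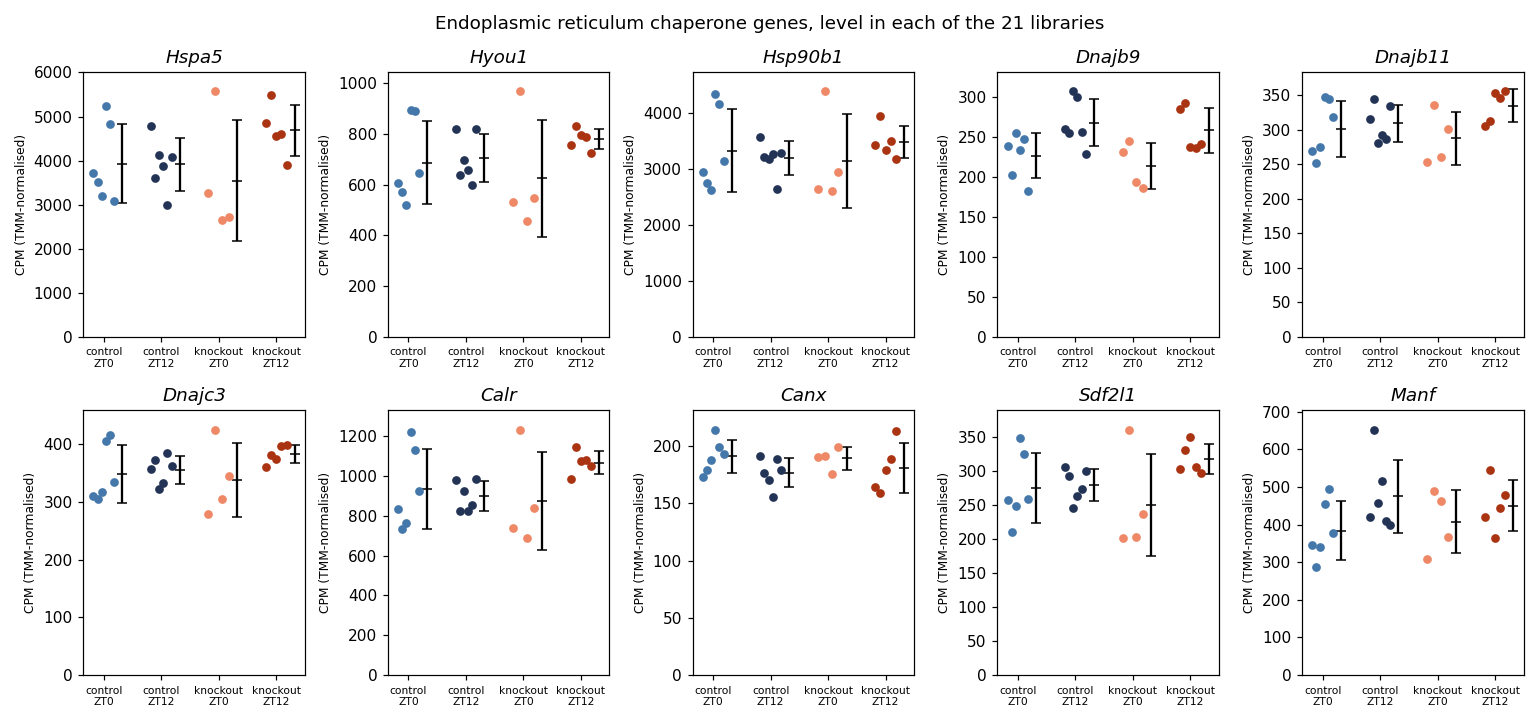
TMM-normalised CPM (vertical axes, from 0) of the 10 genes in control and knockout libraries at ZT0 and ZT12. Each point is a library and the black marks are the group mean ± SD (n = 6, 6, 4 and 5). Knockout ZT0 replicate 2 stands above the other 3 libraries of its group for *Hspa5*, at 5569 against at most 3266 CPM.

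The first question of the design was whether the level changes between ZT0 and ZT12 in control cells. For the ER chaperones the answer was small differences and no call. The lowest, median and highest *Hspa5* levels were 3072, 3618 and 5251 CPM in the ZT0 group, and 2998, 3987 and 4794 CPM in the ZT12 group. The 2 groups overlapped over nearly their whole range. The fitted log2 fold change of ZT12 against ZT0 was -0.0040 (95% interval -0.35 to 0.34), and its adjusted p was 0.995 in edgeR's quasi-likelihood test. *Hyou1*, a large HSP70-type protein that acts as an exchange factor for BiP, had a log2 fold change of 0.037 (SE 0.16) and *Hsp90b1* one of -0.059 (SE 0.13). In bulk RNA, fewer cells of a type and less RNA per cell cannot be told apart.

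In the fit of the group means alone, the largest positive values in control cells belonged to *Manf*, which encodes a small secreted ER protein that binds BiP, and *Dnajb9*, which encodes the J domain cochaperone ERdj4. *Manf* had 287, 361 and 496 CPM (lowest, median and highest) in the ZT0 group and 398, 439 and 652 CPM in the ZT12 group. Its log2 fold change was 0.31 (SE 0.14, edgeR adjusted p = 0.254). It was 0.20 without control ZT12 replicate 2, and 0.10 with the immunoglobulin share as a covariate, where *Dnajb9* (0.29), *Hyou1* (0.25), *Hspa5* (0.18) and *Calr* (0.11) lay above it. *Dnajb9* had 182, 236 and 255 CPM in the ZT0 group and 229, 259 and 307 CPM in the ZT12 group, a log2 fold change of 0.24 (SE 0.10, edgeR adjusted p = 0.217). Both groups overlapped for both genes. The other J domain genes lay nearer to 0, at 0.039 (SE 0.099) for *Dnajb11* and 0.031 (SE 0.10) for *Dnajc3*, and so did *Calr* at -0.058 (SE 0.13), *Canx* at -0.11 (SE 0.087) and *Sdf2l1*, a partner of the BiP cochaperones, at 0.028 (SE 0.13).

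By edgeR 0 of the 10 genes were called at an adjusted p under 0.05, where 1.73% of all genes tested were called, and 0 were called by DESeq2. At an unadjusted p under 0.05 there were 2 of 10, *Dnajb9* and *Manf*, where 18.1% of all genes passed. The value was positive in 6 of the 10, with a median of 0.029 against 0.0062 over all genes. Scaling by library size alone moved the median over all genes to -0.20 and left 2 of the 10 positive, so the sign of the small values follows the scaling. The ends of the 95% intervals lay between -0.35 and 0.61 over the 10 genes.

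In knockout cells the values were mostly positive, again without a call. *Hspa5* was at 3266, 5569, 2642 and 2712 CPM in replicates 1 to 4 at ZT0 and at 4844, 5491, 4569, 4613 and 3902 CPM in replicates 1 to 5 at ZT12. Replicate 2 at ZT0 was above all 5 libraries at ZT12, whereas the other 3 were below all 5. The log2 fold change was 0.40 (SE 0.20, 95% interval -0.0056 to 0.81, edgeR adjusted p = 0.615). It was 0.69 (SE 0.17, edgeR adjusted p = 0.167) without knockout ZT0 replicate 2 and 0.28 (SE 0.21, adjusted p = 0.942) without knockout ZT0 replicate 3, a library with both *Xist* and *Ddx3y*.

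*Sdf2l1* had the same arrangement, with 201, 361, 203 and 237 CPM in the ZT0 libraries and 303, 331, 350, 306 and 297 CPM in the ZT12 libraries. Its log2 fold change of 0.34 (SE 0.15, edgeR adjusted p = 0.613) became 0.56 without replicate 2 at ZT0 and 0.25 without replicate 3. The log2 fold change was 0.32 (SE 0.18) for *Hyou1*, 0.29 (SE 0.15) for *Calr*, 0.27 (SE 0.12) for *Dnajb9* and 0.22 (SE 0.12) for *Dnajb11*, the gene of the cochaperone ERdj3. Without replicate 2 at ZT0 it was 0.60 for *Hyou1* and 0.48 for *Calr*, and without replicate 3 it was 0.19 for both. It was 0.18 (SE 0.12) for *Dnajc3*, which encodes the cochaperone P58IPK, 0.15 for *Manf* and *Hsp90b1* (SE 0.17 and 0.15), and -0.065 (SE 0.10) for *Canx*.

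Thus 9 of the 10 values were positive, with a median of 0.24 against 0.0055 over all genes, and the same 9 to 1 split was obtained with library size alone and with DESeq2's size factors. At an adjusted p under 0.05 edgeR called 0 of the 10, and 0% of all genes were called. DESeq2 also called 0 of the 10, with 0.319% of all genes called. At an unadjusted p under 0.05 there were 2 of 10 (*Dnajb9* and *Sdf2l1*) where 8.01% of all genes passed. This number was 8 without knockout ZT0 replicate 2, a fit in which 1806 of all genes passed. It was 0 without knockout ZT0 replicate 3, where 1071 of all genes passed. EdgeR called 0 of the 10 in either case.

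**Figure D2:**
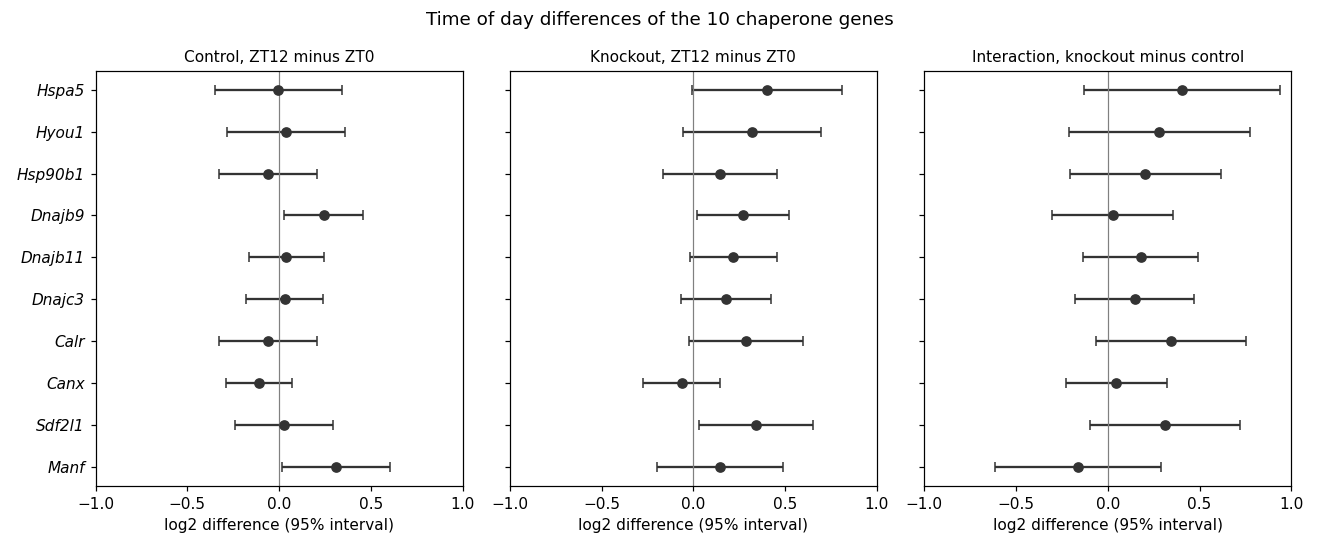
Fitted log2 difference with its 95% interval (horizontal axes) for each gene: ZT12 minus ZT0 in control cells, the same in knockout cells, and the interaction, which is the knockout difference minus the control difference. Of the 10 intervals, those of *Dnajb9* and *Manf* in control cells and of *Dnajb9* and *Sdf2l1* in knockout cells lie above 0, and all 10 intervals of the interaction include 0.

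The interaction tests whether the time of day difference depends on the genotype. It was 0.41 (SE 0.26, 95% interval -0.13 to 0.94, edgeR adjusted p = 0.559) for *Hspa5*, 0.34 (SE 0.20, adjusted p = 0.515) for *Calr* and 0.31 (SE 0.20, adjusted p = 0.557) for *Sdf2l1*. *Manf* was the gene with a negative value, -0.16 (SE 0.22). At an adjusted p under 0.05, 0 of the 10 were called by edgeR and 0 by DESeq2, against 0% of all genes by edgeR and 0.0279% by DESeq2. At an unadjusted p under 0.05 there were 0 of 10, where 10.8% of all genes passed. The median of the 10 was 0.19 against 0.014 over all genes. The control and knockout values share no library, but all 10 genes share the same libraries, so that a single high library moved many of them at once. Without knockout ZT0 replicate 2 the interaction of *Hspa5* was 0.69 (SE 0.21, adjusted p = 0.346) and without replicate 3 it was 0.29 (SE 0.26, adjusted p = 0.879). Without replicate 2 it was also 0.56 for *Hyou1*, 0.54 for *Calr* and 0.53 for *Sdf2l1*. In that fit 5 of 10 passed an unadjusted p under 0.05, and 2498 of all genes did. Without replicate 3 the values were 0.16, 0.25 and 0.23, with 0 of 10, where 1055 of all genes passed. In both cases edgeR called 0 of the 10.

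Between genotypes at ZT0 the knockout values were lower for 9 of the 10 genes, by small amounts. *Hspa5* differed by -0.15 (SE 0.19), *Hyou1* by -0.14 (SE 0.18), *Sdf2l1* by -0.13 (SE 0.15) and *Manf* by 0.086 (SE 0.16). With edgeR 0 of the 10 were called where 0.00987% of all genes (2 genes) were, and 0 of 10 reached an unadjusted p under 0.05 where 4.9% of all genes did. DESeq2 called 0 of the 10. Without knockout ZT0 replicate 3 the values of *Dnajc3*, *Calr* and *Canx* became positive, at 0.0063, 0.0035 and 0.021. Without knockout ZT0 replicate 2 the value of *Hspa5* was -0.44 (SE 0.16, edgeR adjusted p = 0.721), that of *Hyou1* -0.42 and that of *Sdf2l1* -0.35. In that fit 4 of 10 genes had an unadjusted p under 0.05, and 1384 of all genes did. Without replicate 3 it was 0 of 10, where 482 of all genes passed. EdgeR called 0 of the 10 in both cases.

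At ZT12 the knockout values were higher for 8 of the 10. *Calr* ranged from 823 to 984 CPM in the 6 control libraries and stood at 987, 1146, 1074, 1079 and 1052 CPM in the 5 knockout libraries. It was the 1 gene of the 10 whose groups did not overlap where the nearest libraries stood at 984 and 987 CPM, and 0.38% of all genes tested did not overlap either. Its log2 fold change was 0.25 (SE 0.14, edgeR adjusted p = 0.59). *Hspa5* differed by 0.26 (SE 0.18) and *Hyou1* by 0.14 (SE 0.16). By edgeR 0 of the 10 were called where 0.0148% of all genes (3 genes) were and 0.00494% with a higher level in knockout cells, and 0 of 10 reached an unadjusted p under 0.05 where 8.84% of all genes did. DESeq2 called 0 of the 10. In the other 3 comparisons of 2 groups, 0 of the 10 genes had groups that did not overlap, where 0.982% to 2.63% of all genes did.

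Libraries of the same group also differed. The SD of log2 CPM within groups was 0.31 for *Hspa5*, 0.29 for *Hyou1*, 0.27 for *Manf*, 0.24 for *Hsp90b1*, *Calr* and *Sdf2l1*, 0.17 for *Dnajb9* and *Dnajc3*, 0.16 for *Dnajb11* and 0.12 for *Canx*. Among 2820 genes with a mean log2 CPM over 5, whose median SD was 0.17, *Hspa5* stood at percentile 89.6, *Hyou1* at 86.6 and *Canx* at 16.3. In knockout ZT0 the highest library had 2.11 times the *Hspa5* level and 2.13 times the *Hyou1* level of the lowest. The largest difference between any group means on the log2 scale was 0.46 for *Hspa5* and 0.38 for *Hyou1*, above the SD within groups, as it was for the others except *Hsp90b1* (0.18) and *Canx* (0.11).

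A few libraries were high or low for the whole group. Control ZT0 replicates 4 and 5 and knockout ZT0 replicate 2 were above their group mean for all 10 genes, by a mean log2 deviation of 0.30, 0.27 and 0.41. Control ZT0 replicate 2 was below its group mean for all 10 genes (mean -0.24), and knockout ZT0 replicate 3 for 9 of them (mean -0.18). At ZT12 the mean deviations ran from -0.11 to 0.093. The 3 high libraries belonged to the second of 3 successive runs of columns in the deposited table, each of which holds all 4 groups. The low knockout ZT0 replicate 3 belonged to the same run. The labels do not say what these runs are.

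The high libraries also carried *Ddx3y* at 102 to 107 CPM and *Xist* at 3.51 CPM or less. Control ZT0 replicate 6 and knockout ZT0 replicate 4, which were not high, had *Ddx3y* at 94.5 and 89.1 CPM and *Xist* at 1.61 and 1.24 CPM. Control ZT0 replicates 1 to 3 and knockout ZT0 replicate 1, below their group means on average, had *Xist* at 329 to 479 CPM and *Ddx3y* at 0 CPM. Every library of the first run had *Xist* at 329 CPM or more. In the second run all except knockout ZT0 replicate 3 had 3.51 CPM or less. The run of columns and the *Xist* class thus overlapped and were not separated. The immunoglobulin share of the high libraries was 52.5% to 53.6%. Their summed epithelial markers were 51.3 to 68.0 CPM, against 59.5 to 137 CPM in the other 7 ZT0 libraries. Summed myeloid markers were at 56.8 to 68.7 CPM in the high libraries. They were at 37.8 to 43.9 CPM in control ZT0 replicates 1 to 3 and 16.7 to 69.8 CPM in the remaining ZT0 libraries. The part of these in the result was not tested. Within the runs of columns the control difference of *Hspa5* was 0.26, -0.33 and 0.19, and 10, 2 and 6 of the 10 genes had a positive value. In knockout cells the difference of *Hspa5* within the runs was 0.57, 0.52 and 0.68, and 9 of 10 genes were positive in each run. There were 1 or 2 libraries at ZT0 and 1 to 3 at ZT12 per run. The 10 genes share these libraries, so their signs are not separate observations. The share of positive values over all genes within a run was not computed, and the signs were not tested. With the run of columns as a term, *Hspa5* had a log2 fold change of 0.56 (SE 0.17, edgeR adjusted p = 0.473) in knockout cells.

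**Figure D3:**
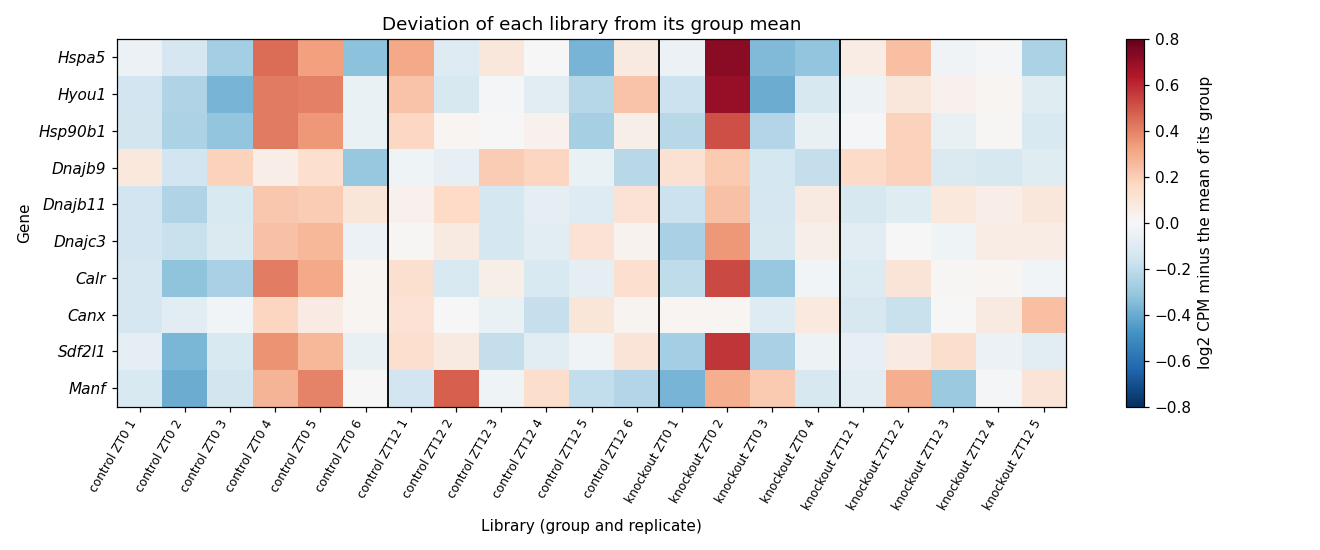
Log2 CPM of each gene (rows) in each of the 21 libraries (columns, grouped by black lines) minus the mean of its group, red above and blue below. Control ZT0 replicates 4 and 5 and knockout ZT0 replicate 2 are above 0 for all 10 genes. Some of these values are near 0, such as *Canx* in knockout ZT0 replicate 2 (0.016) and *Dnajb9* in control ZT0 replicate 4 (0.053). The row of *Canx* is pale throughout.

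The other genes were next set against *Hspa5* itself. The log2 level of *Hspa5* was entered as a covariate beside the 4 group means, a test that was chosen after the levels had been seen. The slope is the log2 change of a gene per log2 unit of *Hspa5* between libraries of the same group. By edgeR 4 of the 9 other genes were called at an adjusted p under 0.05, all with a positive slope, where 0.36% of all genes were called and 0.188% with a positive slope. They were *Hyou1* (slope 0.85, SE 0.11, adjusted p = 0.000375), *Hsp90b1* (0.70, SE 0.097, adjusted p = 0.000886), *Calr* (0.62, SE 0.12, adjusted p = 0.0153) and *Sdf2l1* (0.58, SE 0.12, adjusted p = 0.0304). DESeq2 called 4 of the 9 as well.

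*Hyou1* and *Hsp90b1* were called with each library left out in turn, in 21 of 21 fits, with slopes from 0.75 to 0.90 and from 0.66 to 0.74. *Calr* was called in 19 of 21 fits and *Sdf2l1* in 11 of 21. Without knockout ZT0 replicate 2 their slopes were 0.53 (adjusted p = 0.151) and 0.41 (adjusted p = 0.334), and without control ZT0 replicate 4 they were 0.56 (adjusted p = 0.0765) and 0.53 (adjusted p = 0.124), so that 2 of the 9 genes were called in each case. Without knockout ZT0 replicate 3, 3 of the 9 were called and *Sdf2l1* was not (0.56, edgeR adjusted p = 0.0567). With the run of columns as a term 4 of 9 were called where 4.97% of all genes were, and with the *Xist* class of the library as a term 2 of 9 were called where 0.178% were.

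The remaining slopes were 0.33 (SE 0.18) for *Manf*, 0.30 (SE 0.12) for *Dnajc3*, 0.29 (SE 0.13) for *Dnajb9*, 0.23 (SE 0.12) for *Dnajb11* and 0.014 (SE 0.11, 95% interval -0.22 to 0.25) for *Canx*. With the run of columns as a term the slope was 0.012 for *Manf*, 0.080 for *Dnajb9* and 0.17 for *Canx*. In the fit without that term, the interval of *Canx* did not reach those of the 4 genes that were called. The differences between slopes were not tested. At an unadjusted p under 0.05 there were 6 of 9, where 10.7% of all genes passed. The ERSE stood in the promoters of *Hsp90b1* and *Calr*, which were called, and of *Dnajc3* and *Canx*, which were not. It was not found in the window of *Sdf2l1*, which was called, and *Hyou1* had no promoter entry. Whether the ERSE goes with the slope was not tested.

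**Figure D4:**
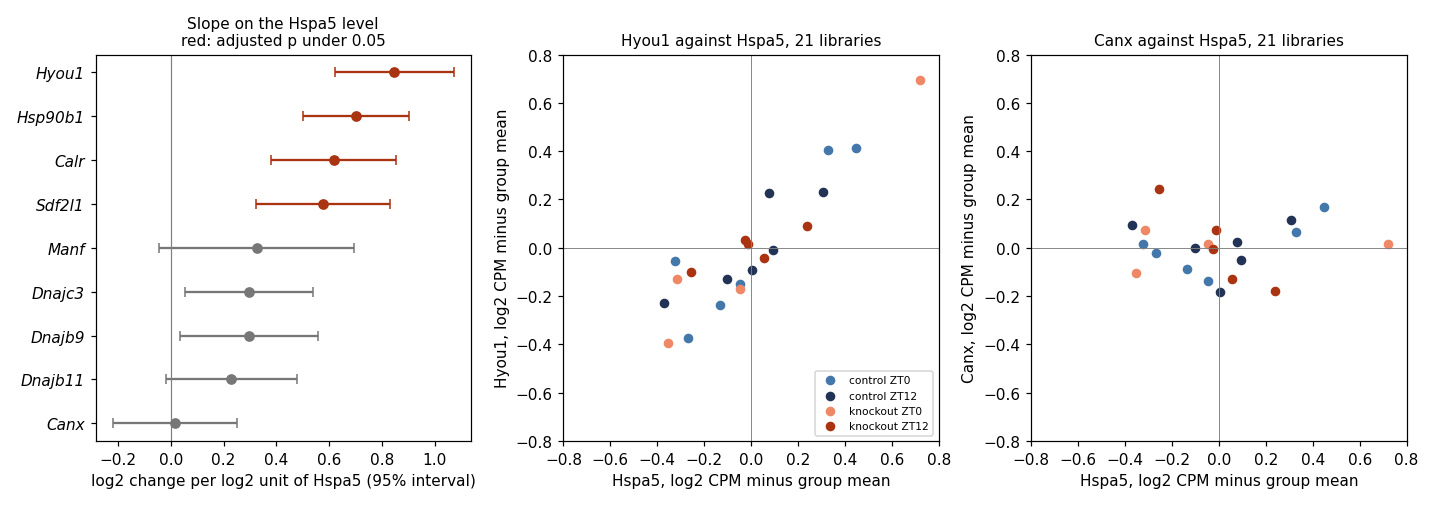
Left, slope on the *Hspa5* level (log2 per log2 unit, with 95% interval) for the other 9 genes, red where called. Middle and right, deviation from the group mean (log2 CPM) of *Hyou1* and of *Canx* against that of *Hspa5*, with 1 point per library: *Hyou1* rises along the diagonal and *Canx* stays level.

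As a description over the 21 libraries, which share depth and composition, the correlation of the deviations from the group means was 0.91 between *Hspa5* and *Hyou1* (Spearman 0.87), 0.90 between *Hspa5* and *Hsp90b1* (Spearman 0.86) and 0.96 between *Hyou1* and *Calr* (Spearman 0.94). *Dnajb11*, *Dnajc3* and *Sdf2l1* were nearer to each other (0.83 to 0.88) than *Dnajb11* and *Dnajc3* were to *Hspa5* (0.46 and 0.56). They were not set apart from the other genes, since *Sdf2l1* had 0.91 with *Calr*, 0.89 with *Hyou1* and 0.76 with *Hspa5*. *Dnajb11* and *Dnajc3* had 0.78 and 0.84 with *Calr*. *Canx* had 0.037 with *Hspa5* and 0.60 with *Dnajb11*, and *Dnajb9* had 0.53 with *Hspa5* but -0.35 with *Canx*. The genes outside the group most like its mean standardized level, among 6925 genes with a mean log2 CPM over 3, were *Nploc4* (Pearson r = 0.92), *Pdia3* (0.92), *Pdia4* (0.92), *Aldh18a1* (0.90) and *Edem1* (0.89) over the 21 libraries. *Pdia3* and *Pdia4* encode disulfide isomerases of the ER and *Edem1* a lectin of ER-associated degradation.

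Other genes of the pathway were taken from fixed lists. In the slope on *Hspa5*, 4 of 13 genes of ER-associated degradation were called with a positive slope, where 0.188% of all genes were. Among them were *Herpud1* (0.78, SE 0.11, edgeR adjusted p = 0.00122), *Syvn1* (0.68, SE 0.10, adjusted p = 0.00122) and *Derl3* (0.59, SE 0.11, adjusted p = 0.0132). The fourth, named because the count is small and after its value was seen, was *Sel1l* (0.56, SE 0.11, edgeR adjusted p = 0.0163). *Syvn1* and *Sel1l* encode the ubiquitin ligase of this pathway and its partner. Of 11 disulfide isomerases and oxidases 1 was called, *Pdia4* (0.57, SE 0.12, adjusted p = 0.0289). There were 0 calls among 20 other ER folding factors, 11 sensors and factors of the unfolded protein response and 12 cytosolic and mitochondrial chaperones. At an unadjusted p under 0.05, where 10.7% of all genes passed, these had 2, 3 and 0 genes. The median slopes of these 5 lists were 0.32, 0.13, 0.090, 0.17 and 0.026, beside 0.33 for the 9 chaperones and -0.034 over all genes.

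In the control comparison of ZT12 with ZT0, *Erlec1* of ER-associated degradation (log2 fold change 0.55, SE 0.13, edgeR adjusted p = 0.028) and the disulfide oxidase gene *Qsox1* (0.38, SE 0.093, adjusted p = 0.0403) were called. In the other 3 lists 0 genes were, where 1.73% of all genes tested were called. At an unadjusted p under 0.05, where 18.1% of all genes passed, 10 of the 20 other ER folding factors had a positive and 1 a negative value. The median of the 20 was 0.24. Among the positive ones were *Erp29* (0.58, SE 0.15, edgeR adjusted p = 0.0558) and *Fkbp11* (0.53, SE 0.14, adjusted p = 0.0559). The 10 chaperones had a median of 0.029 in the same comparison. The mean immunoglobulin share of the control libraries was 52.8% at ZT0 and 57.4% at ZT12. With this share as a covariate edgeR called 0 of all genes in the control comparison, so *Erlec1* and *Qsox1* were not called either. In knockout cells 0 genes of the 5 lists were called by edgeR. At an unadjusted p under 0.05, where 8.01% of all genes passed, there were 6 of 13 genes of ER-associated degradation, 4 of 11 disulfide genes, 4 of 12 cytosolic and mitochondrial chaperones, 1 of 20 other folding factors and 0 of 11 genes of the unfolded protein response, all with positive values. The median of the cytosolic and mitochondrial chaperones was 0.83, above the 0.24 of the ER chaperones. In control cells it was also above that of the ER chaperones, at 0.41 against 0.029. The other medians in knockout cells were 0.20, 0.14, 0.046 and 0.018 for degradation, disulfide, folding and response genes. The disulfide genes included *Ero1l* (0.44, SE 0.11, adjusted p = 0.288) and *Pdia4* (0.46, SE 0.15, adjusted p = 0.53).

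The share of immunoglobulin counts was the last measure set beside the chaperones, since immunoglobulin chains are their main clients in these cells. It was 52.8% ± 0.72 (SD, n = 6) and 57.4% ± 3.99 (SD, n = 6) in control cells at ZT0 and ZT12, and 55.1% ± 2.91 (SD, n = 4) and 54.6% ± 0.95 (SD, n = 5) in knockout cells. With immunoglobulin genes removed before normalization, the slope on this share within groups was -0.043 log2 per percentage point (SE 0.027) for *Hspa5*, -0.047 (SE 0.025) for *Hyou1*, -0.037 (SE 0.020) for *Calr* and 0.042 (SE 0.021) for *Manf*. The slope of *Manf* was 0.017 without control ZT12 replicate 2, the library with the highest immunoglobulin share (63.6%). By edgeR 0 of the 10 genes were called where 12.2% of the 19953 genes tested were, 5.21% with a positive and 6.94% with a negative slope, and 0 of 10 reached an unadjusted p under 0.05 where 26.1% did. DESeq2 called 0 of the 10. The number of genes called fell from 2425 to 307 without control ZT12 replicate 2 and to 1277 without knockout ZT0 replicate 3, with 0 of the 10 chaperones called in either case.

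Of the 20 other ER folding factors 6 were called with a positive and 1 with a negative slope, beside the 12.2% of all genes called, and the difference between the lists was not tested. Among them were *Fkbp2* (0.10, SE 0.014, edgeR adjusted p = 0.000151) and *Cnpy2* (0.086, SE 0.015, adjusted p = 0.000458). Of 11 sensors and factors of the unfolded protein response 3 were called with a positive and 2 with a negative slope. *Xbp1* had a positive slope (0.049, SE 0.012, edgeR adjusted p = 0.00898) and *Atf6*, a sensor of unfolded protein, a negative one (-0.078, SE 0.018, edgeR adjusted p = 0.00511). Whether the genes of these lists stay called without control ZT12 replicate 2 was not examined. The interval of *Hspa5* ran from -0.10 to 0.014 per percentage point, and that of *Dnajb11*, at -0.00083, from -0.031 to 0.030.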

How the data were processed

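RNA of small-intestinal IgA+ plasma cells from 21 samples was analysed. The deposited values are raw counts per gene from poly-A libraries read as pairs. How the authors aligned and counted, and with which annotation and strand setting, is not given in the sources used here, and the submitters' processing notes name DESeq2 and DESeq. Gene coordinates matched GENCODE M21 (GRCm38) for 52019 of 53620 shared genes (97%). Genes with 10 or more counts in all were kept, TMM factors computed, and the 4 group means fitted with edgeR 4.0.16 (robust quasi-likelihood, limma 3.58.1, R 4.3.3). Benjamini-Hochberg adjustment covered every tested gene, and called means an adjusted p under 0.05. DESeq2 1.42.0 was the alternative test. Scripts were tested on simulated data.

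The text names the 10 chaperones, at most 3 genes of each pathway list by smallest p, the 5 genes most correlated with the group mean, and *Arntl*, *Cd79a* and *Jchain*. The chaperones and lists were chosen with earlier results of these data known. *Xist*, *Ddx3y*, *Sel1l*, the slope on *Hspa5* and the terms for the run of columns and the *Xist* class (over 100 CPM) were chosen after values were seen. Libraries held 14471018 to 22785835 counts, and all 46 pairs within groups differed by more than sampling noise (chi-square per gene 26.5 to 216). Alternatives covered the test, scaling, filter, threshold, samples fitted, blocks, covariates, length trend and each library left out.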

Additional observations from a re-analysis of the deposited data

How the results depend on the processing

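For the comparisons between groups and the slope on the immunoglobulin share, 0 of the 10 chaperones were called under every alternative run, by edgeR or DESeq2. A further 14 settings left out no single library, though 1 of them fitted only the groups compared. Another applied a threshold of 0.01 to the main fit, so that its values could not change sign. Of the 858 single values under these settings, 805 kept their direction and side of the threshold, 6 lost a call and 47 changed sign. The latter all lay between -0.1851 and 0.1848 with adjusted p from 0.376 to 1, and the cause was not tested. In the slope on *Hspa5* 4 of 9 genes were called, against 2 at a threshold of 0.01, 2 with the *Xist* class as a term and 2 to 4 with a library left out (2 without control ZT0 replicate 4 and 2 without knockout ZT0 replicate 2).

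The sign changes are given as log2 values. In the control comparison *Hspa5* was 0.01903 (DESeq2), 0.01902 (its size factors), 0.00869 (filterByExpr), 0.1848 (immunoglobulin share as a covariate), 0.01982 (length trend removed), 0.05083 (run of columns) and 0.0068 (*Xist* class). With library size only, *Hyou1* was -0.1498, *Dnajb11* -0.1719, *Dnajc3* -0.1777 and *Sdf2l1* -0.1754. With the immunoglobulin share *Hsp90b1* was 0.04363 and *Calr* 0.1072, and with the length trend removed *Sdf2l1* was -0.1851. The interaction was 0.05277 for *Manf* with library size only, -0.02087 for *Dnajb9*, -0.00502 for *Canx* and 0.06942 for *Manf* with the immunoglobulin share, and -0.01407 for *Canx* with the length trend removed. Between genotypes at ZT0, *Canx* was 0.00908 and *Manf* -0.01426 with the immunoglobulin share, and *Canx* 0.0103 with the length trend removed. At ZT12, *Dnajb9* was 0.07462 and *Manf* 0.07892 with library size only, *Manf* 0.05515 with the immunoglobulin share, *Canx* -0.003772 with the length trend removed, and *Dnajb9* 0.01683 and *Canx* -0.004282 with the run of columns. The slope on the immunoglobulin share of *Dnajb11* and *Dnajc3* was 0.002497 and 0.003052 (DESeq2), 0.002486 and 0.003044 (its size factors), 0.002449 and 0.003024 (filterByExpr), 0.002854 and 0.002513 (run of columns) and 0.009039 and 0.00879 (*Xist* class, with *Sdf2l1* at 0.00159), and that of *Dnajc3* was 0.0002684 without a count filter and 0.01235 with the length trend removed. The slope of *Canx* on *Hspa5* was -0.002738 (DESeq2), -0.004822 (its size factors), -0.01484 (immunoglobulin share) and -0.05807 (length trend removed).

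With each library left out in turn, the control values that changed sign ran from -0.06712 to 0.09894 for *Hspa5*, -0.02992 to 0.1297 for *Hyou1*, -0.1167 to 0.03459 for *Hsp90b1*, -0.003882 to 0.08622 for *Dnajb11*, -0.001556 to 0.08729 for *Dnajc3*, -0.1164 to 0.03458 for *Calr* and -0.03604 to 0.1092 for *Sdf2l1*. The interaction ran from -0.04821 to 0.08283 for *Dnajb9* and -0.03167 to 0.08914 for *Canx*. Between genotypes at ZT0 the ranges were -0.2748 to 0.01546 for *Hsp90b1*, -0.1595 to 0.04229 for *Dnajc3*, -0.295 to 0.003475 for *Calr*, -0.03403 to 0.02876 for *Canx* and -0.004832 to 0.1981 for *Manf*, and at ZT12 -0.03904 to 0.07585 for *Canx* and -0.1566 to 0.02816 for *Manf*. The slopes on the immunoglobulin share ran from -0.02073 to 0.007315 for *Dnajb11*, -0.008629 to 0.008875 for *Dnajc3* and -0.0283 to 0.003221 for *Sdf2l1*, and that of *Canx* on *Hspa5* from -0.06381 to 0.0553.

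Same-numbered samples were not treated as pairs in the main fits. Over 28 pairs the correlation of their deviations ran from -0.618 to 0.453, with 10 over 0.1, which does not settle whether they were paired. With the replicate number as a block, 0 chaperones were called in the comparisons between groups and 3 of 9 in the slope on *Hspa5*, *Hspa5* in the control comparison was 0.0002389 and *Canx* at ZT0 0.02475.

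Counts over all genes depended on the setting. In the control comparison 350 genes were called by edgeR, 1052 by DESeq2, 14 at a threshold of 0.01, 38 with the control samples alone, 179 with the replicate block, 545 with the run of columns, 0 in edgeR with the immunoglobulin share (1647 at an unadjusted p under 0.05) and 31 to 944 with a library left out (31 without control ZT0 replicate 2, 944 without control ZT12 replicate 1). The slope on the immunoglobulin share gave 2425, against 1047 at 0.01, 1130 with the replicate block, 1401 with the length trend removed and 307 to 3198 with a library left out (307 without control ZT12 replicate 2, 3198 without control ZT12 replicate 5). The slope on *Hspa5* gave 73, against 191 by DESeq2, 206 with library size only, 12 at 0.01, 30 with the replicate block, 301 with the immunoglobulin share, 1006 with the run of columns, 36 with the *Xist* class and 21 to 159 with a library left out. DESeq2 called 47 in the knockout comparison, 4 in the interaction, 5 between genotypes at ZT0 and 8 at ZT12, against 0, 0, 2 and 3 by edgeR.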
